A study of Oryctolagus cuniculus with 6 samples.

Results

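The 10 genes described here belong to the TGF-beta and BMP pathways and were measured in primary limbal stem cells (LSCs) cultured from explants of the rabbit limbus. They were taken by gene symbol, 10 of the 22190 genes in the count table, and comprised the ligand genes TGFB1, TGFB2, TGFB3, INHBA, BMP2 and BMP4, the receptor genes TGFBR1 and TGFBR2, and the SMAD genes SMAD3 and SMAD7. RNA-seq was carried out on 3 libraries of a fresh group, whose explants came from corneas that were not frozen, and 3 of a preconditioned group. For the latter, whole corneas lay in liquid nitrogen for 7 days in a freezing medium that held serum, DMSO and 10 ng/mL IL-1β, and explants were cut after thawing. Freezing and IL-1β were therefore given together and their parts cannot be told apart. Cells of both groups were grown in keratinocyte medium on culture dishes. The animals' strain and age, and whether the 3 libraries of a group came from separate animals, are not given in the sources used here. The p values therefore weigh the group difference against the spread between these libraries, which may be technical.

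Ligands of the TGF-beta family are secreted as dimers that bring type II and type I receptor kinases together at the cell surface. TGF-beta and activin signal through SMAD2 and SMAD3, and BMPs through SMAD1, SMAD5 and SMAD9, each with the shared partner SMAD4, while SMAD6 and SMAD7 are inhibitory members induced by the pathway itself. In the cornea, TGF-beta is known for restraining the division of epithelial cells and for turning stromal keratocytes into fibroblasts and myofibroblasts after wounding. TGF-beta activity is set to a large extent after translation, by release of the latent ligand, which RNA levels do not report.

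The libraries held 31952352 to 34327534 counts on genes, and the 10 genes had 37 to 10008 counts in each library. Levels of a gene across libraries are given as CPM, read counts scaled to library size with TMM factors, and levels between genes as the deposited FPKM values, which are also per length. The epithelial label was checked by KRT5, the keratin of basal epithelial cells, which had 7337 to 11740 CPM in the 6 libraries, and by TP63, the p63 gene, with 226 to 246 CPM in the fresh libraries and 112 to 183 CPM in the preconditioned ones. TP63 thus did not overlap between the groups, like 36.7% of all tested genes (log2 fold change −0.77, adjusted p = 0.059 from edgeR, 0.0084 from DESeq2). The epithelial markers EPCAM and ITGB4 did not overlap either but were higher in the preconditioned group. Their log2 fold changes were 0.50 (adjusted p = 0.060 from edgeR, 0.022 from DESeq2) and 0.63 (adjusted p = 0.071 from edgeR, 0.017 from DESeq2). The 8 epithelial markers found had 4 positive and 4 negative values, from −1.21 for KRT3 (adjusted p = 0.30) to 0.81 for PAX6 (adjusted p = 0.11). Of the 8, 0 were called by edgeR (against 2.29% of all tested genes) or DESeq2 (against 7.78%). An unadjusted p under 0.05 was found for 4, which is 50% against 30.6% of all tested genes. KRT14 and KRT12 were not found under those symbols. Stromal genes were also present. The 11 stromal fibroblast and keratocyte markers in the table, of 12 listed, were above 0 in every library and summed to 535 to 1155 CPM in the fresh libraries and 1322 to 2374 CPM in the preconditioned group. Without COL1A1, the only one called by edgeR, the sums were 478 to 1047 and 802 to 1681 CPM. This single edgeR call was 9.09% of the 11 against 2.29% of all tested genes. DESeq2 called COL1A1 and COL6A3, which is 18.2% against 7.78%. COL6A3 was higher in the preconditioned group by 1.83 on the log2 scale (adjusted p = 0.052 from edgeR, 0.00016 from DESeq2), without overlap. VIM and the collagen genes made up most of the sum, and 4 of the 11 had negative log2 fold changes, from −0.01 for PDGFRB to −1.27 for the keratocyte marker KERA (adjusted p = 0.22). In RNA from whole cultures, a change in the number of cells of a type and a change of RNA per cell cannot be told apart, and the part of stromal cells in the values that follow was not tested.

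None of the 10 genes passed the test for a difference between the groups. Genes were called where edgeR's quasi-likelihood test gave an adjusted p up to 0.05 together with a log2 fold change (log2FC, preconditioned against fresh) of 1 or more in size. By this rule 2.29% of the 15029 tested genes were called, and 0 of the 10. DESeq2 called 7.78% of its genes and likewise 0 of the 10. Unadjusted p values under 0.05 were found for 0 of the 10 genes in either tool, against 30.6% of all tested genes in edgeR, and the adjusted p values were 0.26 to 0.96 in edgeR. The fresh and preconditioned libraries overlapped for each of the 10, whereas 36.7% of all tested genes had groups without overlap. The log2FC values ran from −0.96 for BMP2 to 0.51 for SMAD7, 5 of them positive and 5 negative, with a median of 0.05 against 0.01 over all tested genes.

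**Figure D1:**
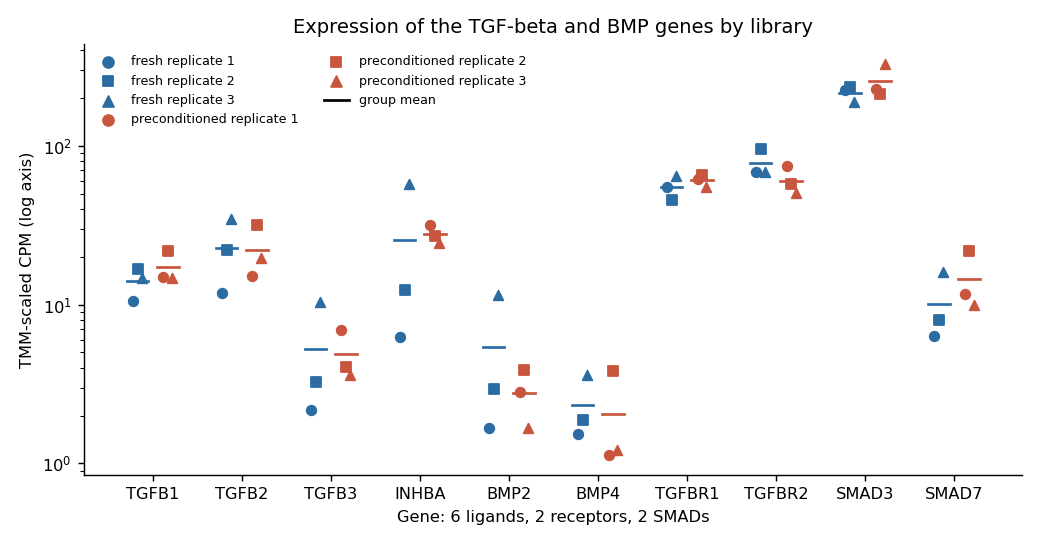
Each point is 1 library and each short line a group mean, on a log axis of TMM-scaled CPM. The fresh and preconditioned points overlap for every gene, and fresh replicate 3 lies highest of all 6 libraries for TGFB2, TGFB3, INHBA and BMP2.

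How closely a change was bounded differed between the genes. For TGFB1, TGFBR1, TGFBR2 and SMAD3, the whole 95% interval of the log2FC lay within 1 of 0. It was −0.28 to 0.85 for TGFB1, −0.22 to 0.49 for TGFBR1, −0.82 to 0.10 for TGFBR2 and −0.20 to 0.69 for SMAD3. For the other 6 genes the interval reached past 1 in at least 1 direction, so that 2-fold differences were within the error. The widest were those of INHBA, from −1.64 to 1.90, and BMP2, from −2.67 to 0.76.

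**Figure D2:**
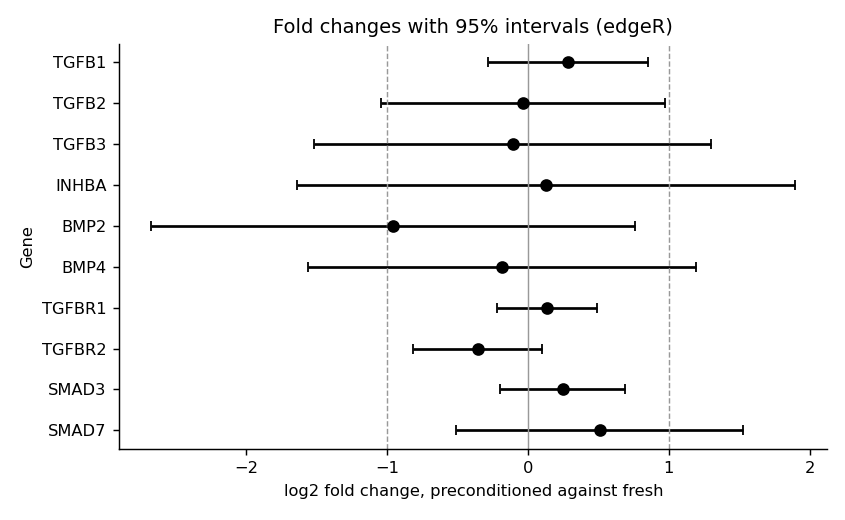
Points are log2FC values of preconditioned against fresh from edgeR, bars are 95% intervals, and dashed lines mark 1 and −1. All 10 intervals include 0, and those of TGFB1, TGFBR1, TGFBR2 and SMAD3 stay between the dashed lines.

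By length-corrected level, the receptor TGFBR2 and the mediator SMAD3 were the most abundant transcripts of the 10. In the fresh group TGFBR2, the ligand-binding type II receptor, had 48.2 ± 9.81 FPKM (SD, n = 3) and SMAD3, the SMAD phosphorylated by the type I receptor, 37.9 ± 4.17 FPKM (SD, n = 3), and their libraries did not overlap. In the preconditioned group they had 33.5 ± 7.42 and 40.1 ± 10.4 FPKM (SD, n = 3 each) and overlapped. TGFB1 and the type I receptor TGFBR1 followed, at 10.8 ± 2.47 and 10.03 ± 1.796 FPKM in the fresh group and 11.7 ± 2.41 and 9.79 ± 0.688 FPKM in the preconditioned group (SD, n = 3 each). These neighbours overlapped among the fresh libraries, and after preconditioning the lowest TGFB1 library was barely above the highest TGFBR1 library. INHBA, SMAD7 and TGFB2 ranged from 2.85 to 6.002 FPKM in the preconditioned libraries, and TGFB3, BMP2 and BMP4 from 0.547 to 2.07 FPKM, with no overlap between these 2 sets. In the fresh libraries the same sets spanned 1.06 to 9.82 and 0.706 to 5.79 FPKM and could not be ordered. How the length of a gene was defined is not given in the sources used here, which bears on every comparison between genes.

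Among the TGF-beta ligands, TGFB1, the isoform best known in wound repair, was expressed at 10.6, 16.8 and 14.8 CPM in fresh replicates 1 to 3 and at 14.9, 21.8 and 14.8 CPM in preconditioned replicates 1 to 3. Fresh replicates 1 and 3 lay below all preconditioned libraries, the latter barely, fresh replicate 2 did not, and the log2FC was 0.29 (standard error, SE, 0.24, adjusted p = 0.45). It was 0.08 without preconditioned replicate 2, 0.12 without fresh replicate 1 and 0.11 with library size alone. TGFB2 had 11.9, 22.0 and 34.4 CPM in the fresh libraries and 15.2, 31.8 and 19.6 CPM in the preconditioned ones. The fresh libraries held both the lowest and the highest value, and the log2FC was −0.03 (SE 0.42, adjusted p = 0.96). TGFB3, the isoform known for scarless repair in skin, had 2.17, 3.26 and 10.3 CPM in the fresh libraries and 6.97, 4.06 and 3.59 CPM in the preconditioned group. All 3 preconditioned values lay in the gap between fresh replicates 2 and 3, and the log2FC was −0.11 (SE 0.60, adjusted p = 0.92).

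Which TGF-beta ligand gene led depended on the correction for length. By FPKM, TGFB1 held the largest share in every library, and by raw counts TGFB2 did, with 41.1% to 57.8% against 24.8% to 43.0% for TGFB1. The TGFB1 share of the summed FPKM of TGFB1, TGFB2 and TGFB3 was 72.2%, 69.9% and 52.2% in the fresh libraries and 68.0%, 68.1% and 68.6% in the preconditioned ones. The difference of the means was 3.51 percentage points and smaller than the fresh spread (SD 10.9, exact permutation test, 2-sided, p = 1.0, where 3 libraries against 3 cannot go below 0.1). It turned to −2.77 percentage points without fresh replicate 3. TGFB2 held 26.1% ± 5.62 in fresh and 23.1% ± 4.11 in preconditioned libraries (SD, n = 3 each, exact permutation test, p = 0.5), and its difference of −3.005 percentage points became 0.137 without the same library. In all, 5 shares and ratios were tested, the adjusted p values were 0.875 to 1.0, and with a smallest possible p of 0.1 none could pass 0.05.

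**Figure D3:**
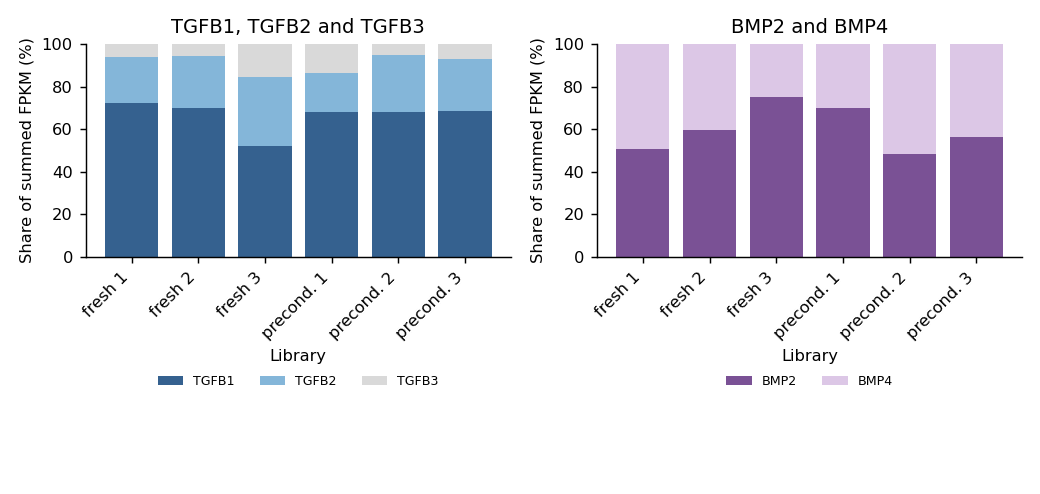
Stacked bars give each library's share of summed FPKM, in percent, for the TGFB ligand genes on the left and for BMP2 and BMP4 on the right. TGFB1 holds 68.0% to 68.6% in the preconditioned libraries and 52.2% to 72.2% in the fresh ones, with fresh replicate 3 lowest.

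INHBA encodes the beta A chain of activin A, a ligand that acts through the same SMADs as TGF-beta. It had the widest spread of the 10 genes in the fresh group, at 6.26, 12.3 and 57.6 CPM, while the preconditioned libraries lay close together at 31.6, 27.1 and 24.6 CPM. The preconditioned values were thus above fresh replicates 1 and 2 and below fresh replicate 3. The log2FC was 0.13 (SE 0.74, adjusted p = 0.92), and it was −0.04 when libraries were scaled by size alone. Without fresh replicate 3 it was 1.57 (SE 0.32, adjusted p = 0.092 from edgeR), which was still not called, and leaving out each library in turn gave −0.33 to 1.57.

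BMP2 and BMP4, closely related ligands of the BMP branch, were the least abundant of the 10 genes in CPM together with TGFB3. BMP2 had 1.68, 2.95 and 11.6 CPM in the fresh libraries and 2.80, 3.87 and 1.68 CPM in the preconditioned ones. Its lower mean in the preconditioned group came with a single high fresh library, since the log2FC of −0.96 (SE 0.72, adjusted p = 0.40) became 0.26 without fresh replicate 3. BMP4 had 1.54, 1.88 and 3.58 CPM in the fresh libraries and 1.13, 3.84 and 1.22 CPM in the preconditioned group, with preconditioned replicate 2 the highest of all and a log2FC of −0.18 (SE 0.59, adjusted p = 0.86). That value was 0.26 without fresh replicate 3 and −0.99 without preconditioned replicate 2. BMP2 made up 61.6% ± 12.4 of the summed FPKM of the BMP2 and BMP4 genes in fresh and 58.2% ± 10.8 in preconditioned libraries (SD, n = 3 each, exact permutation test, p = 0.7). This difference of −3.46 percentage points was 3.25 without fresh replicate 3 and 1.41 without preconditioned replicate 2.

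The 2 TGF-beta receptor genes varied less than the ligands among the fresh libraries. TGFBR1 had 55.4, 45.4 and 64.9 CPM in the fresh libraries and 61.7, 65.0 and 55.3 CPM in the preconditioned ones, so that the preconditioned values lay within the fresh range but for a margin in replicate 2. Its log2FC was 0.14 (SE 0.15, adjusted p = 0.58) and −0.03 with library size alone. TGFBR2 had 68.5, 95.6 and 68.1 CPM in the fresh libraries and 74.1, 57.1 and 50.2 CPM in the preconditioned group. Preconditioned replicates 2 and 3 were below all fresh libraries, replicate 1 was not, and the log2FC was −0.36 (SE 0.20, adjusted p = 0.26). It was negative in all alternatives run, and leaving out a library moved it between −0.54 (adjusted p = 0.073, without preconditioned replicate 1) and −0.18 (adjusted p = 0.61, without fresh replicate 2). Without preconditioned replicate 3 it was −0.24. Within each library the log2 ratio of TGFBR2 to TGFBR1 in FPKM was 2.26 ± 0.525 in fresh and 1.76 ± 0.248 in preconditioned libraries (SD, n = 3 each, exact permutation test, 2-sided, p = 0.2), a ratio chosen after the values were seen. The difference of −0.51 became −0.21 without fresh replicate 2.

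SMAD3 was the most abundant of the 10 genes in CPM. It had 225, 235 and 188 CPM in the fresh libraries and 227, 213 and 330 CPM in the preconditioned ones. Preconditioned replicate 3 stood above the rest, and the log2FC of 0.25 (SE 0.19, adjusted p = 0.40) was 0.03 without it. SMAD7, which blocks the activated receptor and is itself a direct target of the pathway, had 6.38, 7.96 and 16.03 CPM in the fresh libraries and 11.7, 21.7 and 9.88 CPM in the preconditioned group. All preconditioned libraries were above fresh replicates 1 and 2, and 2 of them were below fresh replicate 3, with a log2FC of 0.51 (SE 0.43, adjusted p = 0.45). Without fresh replicate 3 the value was 1.003 (SE 0.39, adjusted p = 0.18 from edgeR), and without preconditioned replicate 2 it was 0.09. The log2 ratio of SMAD7 to SMAD3 was −3.65 ± 0.851 in fresh and −3.34 ± 0.884 in preconditioned libraries (SD, n = 3 each, exact permutation test, p = 0.6). It differed by 0.31, and by −0.15 when preconditioned replicate 2 was left out.

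The ligand genes other than TGFB1 spread widely within the fresh group. The SD of log2 CPM over the 3 fresh libraries was 1.63 for INHBA, 1.396 for BMP2, 1.14 for TGFB3, 0.77 for TGFB2 and 0.61 for BMP4, against a median of 0.19 over all tested genes. INHBA was at percentile 99.5 of all tested genes by this SD, BMP2 at 98.9 and TGFB3 at 97.6. TGFBR1, TGFBR2 and SMAD3 had SDs of 0.26, 0.28 and 0.17. In the preconditioned group the SD of INHBA was 0.18, below the median of 0.28 over all tested genes, and that of BMP4 was the highest of the 10 at 0.94. The fresh SD was above the preconditioned SD for 7 of the 10 genes and for 34.8% of all tested genes.

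The fresh libraries were ordered alike for most of these genes. Fresh replicate 1 was the lowest fresh library for all 6 ligands and SMAD7, 7 of the 10 genes, as it was for 31.9% of all tested genes. Fresh replicate 3 was the highest fresh library for TGFB2, TGFB3, INHBA, BMP2, BMP4, TGFBR1 and SMAD7, again 7 of the 10, and for 36.3% of all tested genes. The genes share these libraries and are not independent, so the counts are a description. The summed stromal markers had the same order, with 535, 836 and 1155 CPM in fresh replicates 1, 2 and 3. Among the preconditioned libraries they were highest in replicate 2, at 2374 CPM. Not every stromal marker had the order of the sum. LUM and KERA were lowest in fresh replicate 2, and THY1, COL6A3 and, barely, COL1A1 were the highest there among the fresh libraries. The 4 leukocyte markers summed to 95.8 to 131 CPM in the fresh libraries and to 122.7, 307 and 290 CPM in preconditioned replicates 1, 2 and 3. Nearly all of this was CD68, a macrophage marker, while PTPRC, CD74 and CSF1R each had 0.113 to 4.73 CPM. CD68 had a log2FC of 1.14 (adjusted p = 0.085 from edgeR, 0.0095 from DESeq2). Melanocyte and vascular endothelial markers summed to at most 5.69 and 13.0 CPM in any library. The part of stromal cells or leukocytes in these values was not tested.

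Leaving out fresh replicate 3 gave positive log2FC values for 9 of the 10 genes, in place of 5, with TGFBR2 the exception. This library was already seen to be the highest fresh one for 7 of the 10. Its removal lowers their fresh means and raises their log2FC by construction, so the shift is a description and no test. INHBA, TGFB3 and SMAD7 then had no overlap between the groups, as had 46.1% of all tested genes, and 0 of the 10 reached an adjusted p of 0.05. TGFB3 changed from −0.11 to 0.84 (adjusted p = 0.27) and TGFB2 from −0.03 to 0.39 (adjusted p = 0.58). With 5 libraries, edgeR called 47 genes over the whole table, against 344 with 6.

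**Figure D4:**
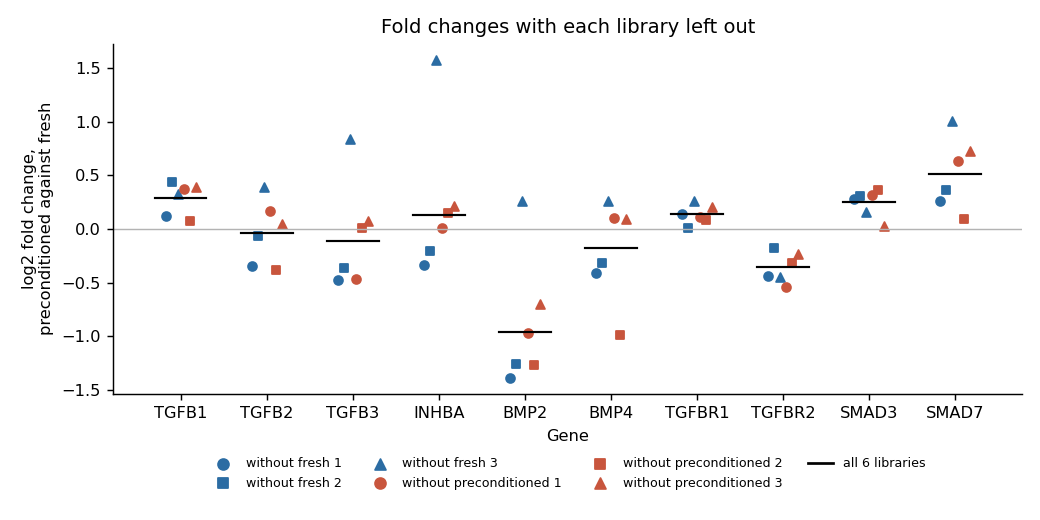
Each point is the log2FC of preconditioned against fresh with 1 library left out, and black lines are the values with all 6. For INHBA, TGFB2, TGFB3, SMAD7, BMP2, BMP4 and TGFBR1 the highest point is that without fresh replicate 3, reaching 1.57 for INHBA. These are the genes for which it was the highest fresh library.

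The pathway was then followed beyond the 10 genes, in 8 lists by role that hold 110 genes, of which 106 were in the table and 93 passed the filter on low counts. Of the 93, 3 were called, all higher in the preconditioned group, which is 3.23% against 2.29% of all tested genes. They were SKIL, CDKN1A and COL1A1. All 8 lists were chosen with earlier results of these data known, so that their shares are a description. The median log2FC of the 93 was 0.10, with 54 positive and 39 negative. At an adjusted p up to 0.05 with no fold change cutoff, 5 genes passed, 5.38% against 5.08% of all tested genes. Groups did not overlap for 19, which is 20.4% against 36.7%. DESeq2 called 7 of the 93, all higher, or 7.53% against 7.78% of its genes over the table. These shares are near or below those of all genes. DESeq2 added the genes GDF15, THBS1, CHRD and NBL1.

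SKIL encodes SnoN, a corepressor that binds SMADs and is induced by TGF-beta. It rose from 34.1, 38.3 and 55.6 CPM in the fresh libraries to 87.9, 99.99 and 73.8 CPM in the preconditioned ones, a log2FC of 1.03 (SE 0.21, adjusted p = 0.044). CDKN1A, the cell cycle inhibitor p21, which TGF-beta and also p53 induce, rose from 1043 ± 124 CPM in fresh to 2354 ± 683 CPM in preconditioned cells (SD, n = 3 each), a log2FC of 1.18 (SE 0.22, adjusted p = 0.039 from edgeR). COL1A1, a chain of collagen I and also one of the stromal markers above, rose from 91.3 ± 29.8 to 578 ± 100 CPM with a log2FC of 2.66 (adjusted p = 0.015 from edgeR). For each of the 3 genes, all preconditioned libraries were above all fresh ones. SKIL and CDKN1A were near both cutoffs. Neither was called by limma on the FPKM values or with library size alone, where their log2FC values were 0.86 and 0.998. Leaving out any library other than preconditioned replicate 1 also ended both calls, with adjusted p values of up to 0.16 for SKIL and 0.15 for CDKN1A. In these settings edgeR called only 14 to 72 genes over the whole table, against 344 with 6 libraries. COL1A1 was not called without fresh replicate 2 (log2FC 2.80, adjusted p = 0.069) or preconditioned replicate 2 (log2FC 2.51, adjusted p = 0.067). Only 14 and 16 genes were called over the table in these 2 settings, and the COL1A1 log2FC was little changed.

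The other TGF-beta responsive genes did not pass the test. Of 18 tested, 14 had positive log2FC values (77.8% against 50.5% of all tested genes), with a median of 0.49 against 0.01, and the 3 called were 16.7% against 2.29%. This list shares COL1A1, COL1A2 and COL3A1 with the stromal markers. It was also chosen with earlier results of these data known, so its shares and median are a description and no independent evidence. Singled out after their values were seen, CCN2, FN1, COL1A2 and COL3A1 had log2FC values of 0.65, 0.72, 1.11 and 0.85 with adjusted p values of 0.31, 0.29, 0.17 and 0.37. TGFBI, a matrix protein abundant in the cornea, had −0.25 (likewise singled out), and TNC, tenascin C, had the lowest value, −0.61 (adjusted p = 0.17). Of the 11 BMP responsive genes tested, edgeR called 0 (against 2.29% of all tested genes) and DESeq2 called 0 (against 7.78%). For so few genes, 0 calls are near these shares. An unadjusted p under 0.05 in edgeR was found for 0, against 30.6% of all tested genes, and the median log2FC was 0.11. ID1, ID2 and ID4, named after their values were seen, and ID3, all inhibitors of differentiation, had log2FC values of −0.14, −0.13, 0.31 and −0.15 in that order, and ATOH8 had the largest at 0.78 (adjusted p = 0.40).

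**Figure D5:**
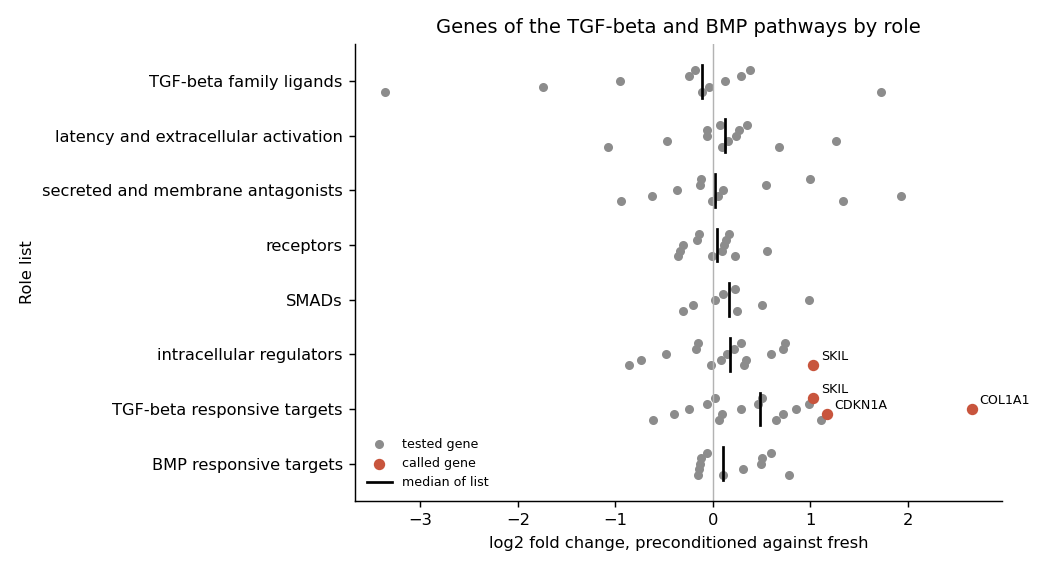
Each point is a tested gene of a role list at its log2FC, black bars are list medians, and genes called by edgeR are labelled. The called genes are SKIL, CDKN1A and COL1A1, and the medians lie between −0.11 for the ligands and 0.49 for the TGF-beta responsive genes.

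Among the ligand genes outside the 10, GDF15, a stress-induced cytokine distant from the rest of the family, had the highest log2FC. It had 2.78, 7.65 and 3.01 CPM in the fresh libraries and 9.07, 18.3 and 17.1 CPM in the preconditioned group, without overlap. Its log2FC was 1.72 (SE 0.47), with an adjusted p of 0.069 in edgeR and 0.0024 in DESeq2. BMP3, a ligand that opposes other BMPs, had the lowest value, −3.36 (SE 1.28, adjusted p = 0.14), with 0.493, 3.85 and 20.2 CPM in the fresh libraries and 1.52, 0.416 and 0.428 CPM in the preconditioned ones. Its high value lay in fresh replicate 3, without which it was −1.46. INHA and INHBB, which encode further inhibin and activin chains and were named after their values were seen, had log2FC values of 0.38 and −0.25. Of 22 ligand genes listed, 20 were in the table and 11 were tested, and 9 were below the filter.

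In the list of receptors 0 of 12 were called by edgeR (against 2.29% of all tested genes) or DESeq2 (against 7.78%). For so few genes, 0 calls are near these shares. An unadjusted p under 0.05 was found for 0, against 30.6% of all tested genes. The log2FC values ran from −0.36 for TGFBR2 to 0.55 for ACVRL1 (adjusted p = 0.40). The median absolute log2FC was 0.16, against 0.37 over all tested genes. The 8 SMAD genes ran from −0.31 for SMAD1 (adjusted p = 0.20) to 0.99 for SMAD9 (adjusted p = 0.33). Of these, 0 were called by edgeR or DESeq2, against 2.29% and 7.78% over all genes, which is likewise near for so few genes. Unadjusted p values under 0.05 were 0, against 30.6% of all tested genes. SMAD1 and SMAD4 were lower in all 3 preconditioned libraries than in any fresh one, which is 25.0% of the SMAD genes without overlap against 36.7% of all tested genes, at 22.5 ± 2.52 against 18.2 ± 1.12 CPM for SMAD1 (SD, n = 3 each).

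In the list of latency and activation genes 0 of 12 were called by edgeR, 1 had an unadjusted p under 0.05 (8.33% against 30.6% of all tested genes), and THBS1 alone was called by DESeq2 (8.33% against 7.78%). THBS1, thrombospondin 1, which can release TGF-beta from its latent form, had a log2FC of 1.26 (SE 0.55, adjusted p = 0.18), with 52.8, 59.7 and 156 CPM in the fresh libraries and 134, 364 and 145 CPM in the preconditioned group. It was 0.65 without preconditioned replicate 2 and 1.93 without fresh replicate 3. LRRC32, which anchors latent TGF-beta on the cell surface, had the lowest value at −1.08 (adjusted p = 0.31), which was −2.18 without preconditioned replicate 2 and −0.66 without preconditioned replicate 3. ITGAV, the integrin alpha V chain that binds latent TGF-beta, rose from 170 ± 4.92 CPM in fresh to 271 ± 38.3 CPM in preconditioned cells (SD, n = 3 each) with an adjusted p of 0.040 from edgeR, but its log2FC of 0.68 was under the cutoff. Leaving out any library but preconditioned replicate 1 gave an adjusted p between 0.092 and 0.15. ITGAV was singled out after its values were seen, as were CHRD, NBL1 and WWP1.

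Of 12 antagonists tested, 0 were called by edgeR and 4 had an unadjusted p under 0.05 (33.3% against 30.6% of all tested genes). CHRD, chordin, a secreted BMP inhibitor, had 4.29 ± 0.467 CPM in fresh cells and 10.8 ± 4.75 CPM in preconditioned cells (SD, n = 3 each), without overlap and with a log2FC of 1.34 (adjusted p = 0.063 from edgeR, 0.0035 from DESeq2). NBL1, another BMP antagonist, had a log2FC of 1.0002 (adjusted p = 0.13, and 0.040 in DESeq2), and 0.57 without preconditioned replicate 2. GREM1, gremlin 1, had the largest value at 1.93 (SE 1.10, adjusted p = 0.28), but its levels were 0.653 ± 0.720 CPM and 2.501 ± 2.70 CPM (SD, n = 3 each), and the spread exceeded both means. It was 0.56 without preconditioned replicate 2. BMPER had the lowest at −0.94 (adjusted p = 0.094 from edgeR, 0.025 from DESeq2), and its preconditioned libraries lay below the fresh ones without overlap.

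Among 16 intracellular regulators, 9 had an unadjusted p under 0.05 (56.2% against 30.6% of all tested genes) and SKIL was called. Groups did not overlap for 9 (56.2% against 36.7%), of which 6 were higher and 3 lower. WWP1, a ubiquitin ligase of the family that acts on SMADs and receptors, rose from 86.6 ± 9.99 CPM in fresh to 145 ± 17.6 CPM in preconditioned cells (SD, n = 3 each, adjusted p = 0.039 from edgeR), with a log2FC of 0.74 that was under the cutoff. Without any library but preconditioned replicate 1 its adjusted p was between 0.094 and 0.15. TGIF2, a corepressor of SMADs, had the lowest value at −0.86 (SE 0.27, adjusted p = 0.091).

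Leaving out preconditioned replicate 1 raised the calls over the whole table from 344 to 1546, and GDF15, CHRD, BMPER and TGIF2 were then among them. With any other library left out, edgeR called only 14 to 72 genes over the table. The adjusted p values of these 4 genes were then 0.098 to 0.25, and none was called.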

How the data were processed

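RNA-seq libraries of the fresh and the preconditioned group (n = 3 each) were analysed from 2 tables. Alignment by the authors used hisat2 and gene counting used htseq-count, and raw counts were deposited. The authors also deposited FPKM values, which are the count divided by the library's total and 1 length per gene. Genome build, annotation and strand setting are not given in the sources used here, so that reads of overlapping antisense genes cannot be told apart. Columns were assigned by the library names in the sample records.

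The tests ran in edgeR 4.0.16 under R 4.3.3 (filterByExpr, TMM, robust quasi-likelihood test on group alone), which tested 15029 of 22190 genes. P values were Benjamini-Hochberg adjusted over all tested genes, and calls needed an adjusted p up to 0.05 and a log2 fold change of 1 or more in size. Standard errors were derived from F, and 95% intervals from the test's degrees of freedom. SDs of log2 CPM used a pseudocount of 0.1. Shares and ratios were computed per library from FPKM and compared by exact permutation tests. Depth was 31952352 to 34327534 counts per library. Counting error and the spread between libraries were not separated for single genes.

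Genes named besides the 10 were the called genes of each role list and the genes with the largest and smallest log2 fold change in it, and others named were chosen after their values were seen. The 10 genes and the lists were chosen with earlier results of these data known. Alternatives were DESeq2 1.42.0, DESeq2 size factors, library size alone, other count filters, the replicate number as a block, limma 3.58.1 on log2(FPKM + 1) and log2(FPKM + 0.1), adjusted p alone, raw counts for shares, and leaving out each library. The fits were tested on simulated data.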

Additional observations from a re-analysis of the deposited data

How the results depend on the processing

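None of the 10 genes was called under any of the alternatives run, and of their recomputed log2 fold changes 122 kept their sign and 18 turned. Over all genes, edgeR called 344, DESeq2 1190, library size alone 565, limma on log2(FPKM + 0.1) 590 and adjusted p alone 763. With the replicate number as a block, 30 genes were called, and the numbers from leaving out a library were 14 to 1546. Of the calls, 47.4% were higher in the preconditioned group, against 25.1% with library size alone, 27.2% with limma on log2(FPKM + 1) and 23.9% on log2(FPKM + 0.1). Library size alone moved the median of all log2 fold changes from 0.01 to −0.16. The 3 calls in the pathway lists became 7 with DESeq2, 5 with adjusted p alone, and 1 each with library size alone, the replicate block and both limma fits, and leaving out a library gave 0 to 7. The replicate block ended the calls of SKIL (1.06, adjusted p = 0.10) and CDKN1A (1.14, adjusted p = 0.080). The calls were 0 without fresh replicate 2 or preconditioned replicate 2. The cause of these differences was not tested.

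Signs turned under the replicate block for TGFB2 (0.031) and TGFB3 (0.16), with library size alone for INHBA (−0.045) and TGFBR1 (−0.035), and with both limma fits for TGFBR1 (−0.021 and −0.022). Leaving out a library gave −0.38 to 0.39 for TGFB2, −0.48 to 0.84 for TGFB3, −0.33 to 1.57 for INHBA, −1.38 to 0.26 for BMP2, −0.99 to 0.26 for BMP4, −0.049 to 1.12 for ATOH8 and −0.37 to 0.14 for ID3. It gave −2.77 to 7.23 percentage points for the TGFB1 share, −5.28 to 0.137 for TGFB2, −9.30 to 3.25 for BMP2, and −0.15 to 0.80 for the log2 ratio of SMAD7 to SMAD3. Deviations from the group mean were not positively correlated between libraries that share a number (r across genes of −0.071, −0.070 and −0.104), and no source says that they are paired.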

Other observations

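The deposited table assigns genes to pathways and GO terms, and these longer lists were examined after the results above had been seen. Of 81 tested genes that it places in the KEGG TGF-beta signaling pathway, 0 were called by edgeR, 20 had an unadjusted p under 0.05 (24.7% against 30.6% of all tested genes), and DESeq2 called 4, all higher (4.94% against 7.78%). At an adjusted p of at most 0.05, 4 were lower and 1 was higher in the preconditioned group, 6.17% against 5.08% of all tested genes, so that the count is near that of any genes. The lower genes were CREBBP and EP300, acetyltransferases that serve as coactivators of SMADs and of many other factors, TFDP1, a partner of E2F factors, and RPS6KB1, a kinase downstream of mTOR. CREBBP fell by 0.84 on the log2 scale, from 72.1 to 40.2 CPM (adjusted p = 0.049 from edgeR), and EP300 fell by 0.56, from 140 to 94.7 CPM (adjusted p = 0.048). TFDP1 fell by 0.86 (adjusted p = 0.041) and RPS6KB1 fell by 0.51 (adjusted p = 0.049). PPP2CB, a catalytic subunit of protein phosphatase 2A, rose by 0.62 (adjusted p = 0.037). With preconditioned replicate 1 left out, the adjusted p values of these 5 genes were between 0.0036 and 0.017, and without any other single library they were between 0.085 and 0.17, so that none of the 5 passed.

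Of the 46 tested genes with the GO term for TGF-beta receptor signaling, SKIL was called by edgeR (2.17% against 2.29% of all tested genes) and 2 genes by DESeq2 (4.35% against 7.78%), and 6 had an unadjusted p under 0.05 (13.0% against 30.6%). Of the 33 with the term for BMP signaling, 0 were called by edgeR, 8 had an unadjusted p under 0.05 (24.2% against 30.6%), and DESeq2 called 1 higher and 1 lower (6.06% against 7.78%). The medians of their log2 fold changes were 0.07 and 0.09.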
